A study of Mus musculus with 6 samples.

Results

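Plac8, F13a1, Vcan, Hp, Gda, Cd34 and Chil3 are 7 genes used to mark inflammatory (Ly6C-high) monocytes and myeloid progenitors. They were followed in macrophages grown from the marrow of AEG-1 knockout and wild-type mice. The 7 genes came from a list, not from a threshold in these data, although earlier results of these libraries were known when the list was drawn up. All 7 were found by symbol among the 46983 genes of the count table, and all 7 passed the filter on low counts that left 16115 genes for testing.

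Bone marrow from the femurs of C57BL/6 mice, either wild-type (WT) or AEG-1 knockout (AEG-1 KO), was grown for 7 days in medium with 10% serum and 20% L929 conditioned medium, which supplies the macrophage growth factor M-CSF. The cells were left untreated and their total RNA was sequenced, with 3 libraries per genotype. The gene Mtdh encodes AEG-1 (astrocyte elevated gene-1). The labels name the genotype only as AEG-1 knockout. They do not say which part of Mtdh was removed, whether the loss was confined to some cells, how old or of which sex the mice were, or whether replicates were separate animals. The p-values below therefore cover the variation among these libraries, part of which may be technical. Libraries held 42548170 to 58947230 reads assigned to genes, and Mtdh had 11560 to 14849 reads in WT and 15 to 22 reads in AEG-1 KO, so every library had the Mtdh level of its label. The cultures carried macrophage transcripts at high levels: Adgre1, the gene of F4/80, was at 4603 ± 34.0 CPM in WT against 4038 ± 125 CPM in AEG-1 KO (SD, n = 3). CPM are read counts put on a common library size by the trimmed mean of M-values (TMM). The summed CPM of 16 macrophage markers was 14288 to 17056 per library, against 133 to 194 for the 7 monocyte markers. For 16 other genes of Ly6C-high monocytes it was 1217 to 1461, and each sum depends on the genes listed.

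Inflammatory monocytes leave the marrow, enter inflamed tissue through the chemokine receptor CCR2, and there turn into macrophages. In culture with M-CSF, marrow progenitors and monocytes pass along the same path, and genes typical of monocytes are turned down as the cells mature. Transcripts of such genes in a macrophage culture can come from cells that have not finished this step or from macrophages that go on making them. In bulk RNA, a change in the number of such cells and a change in the RNA of each cell cannot be told apart.

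Comparing AEG-1 KO with WT addressed how resting macrophages change when AEG-1 is missing. Of the 7 genes, 4 rose in AEG-1 KO, namely Plac8, F13a1, Chil3 and Gda. None fell, while Vcan, Cd34 and Hp missed the threshold (quasi-likelihood test of edgeR at 0.05, with p-values adjusted by Benjamini-Hochberg over all 16115 tested genes). Over all tested genes 3.31% were called higher and 3.04% lower, 6.35% in all. The median log2 fold change was 0.45 over the 7 genes and 0.01 over all tested genes. CPM did not overlap between genotypes in 6 of the 7 genes, 5 with AEG-1 KO above WT and Hp with AEG-1 KO below WT. Over all tested genes this was so in 26.8%, with AEG-1 KO above in 13.9% and below in 12.9%. Because earlier results of these libraries were known when the genes were chosen, the counts describe these genes and are not an independent test of the group.

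**Figure D1:**
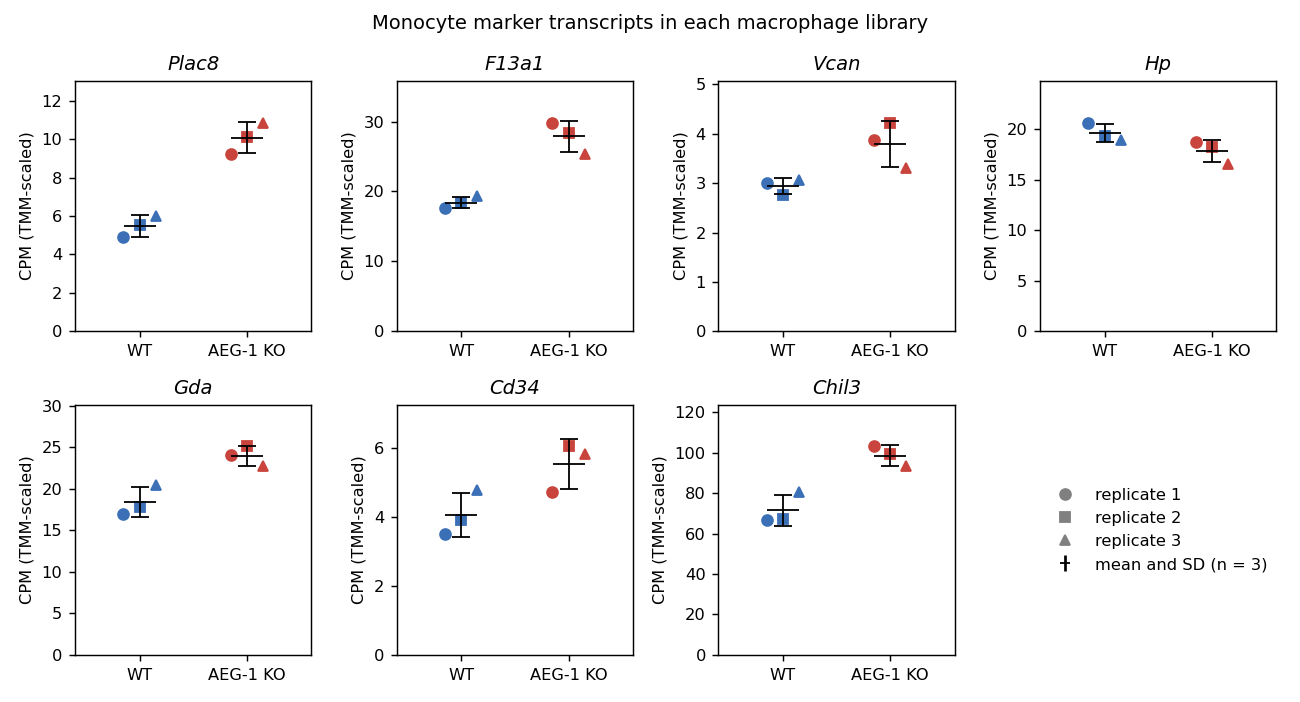
TMM-scaled CPM (vertical axes, starting at 0) of the 7 genes in each WT (blue) and AEG-1 KO (red) library, with symbols for replicates 1 to 3 and the mean with SD (n = 3) in black. For Plac8 the WT libraries sit at 4.90 to 6.01 CPM and the AEG-1 KO libraries at 9.25 to 10.9 CPM, whereas the Cd34 values of the genotypes overlap and Hp is slightly lower in AEG-1 KO.

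The stretches before the start sites of the 4 genes that rose are shown because these genes moved in the same direction. They are RefSeq sequences of GRCm38.p6, 5′ to 3′ along the gene, and each ends before the first annotated exon base it meets. For Plac8, F13a1 and Chil3 this is the annotated start of the gene. The Gda window instead lies inside the annotated gene, before a RefSeq start site 784 bases from the gene's annotated start. Each was searched on both strands for GAGGAA, the core bound by the myeloid factor PU.1, for TTGCNNAA, a core of C/EBP sites, and for TTCNNNNGAA, the spacing typical of STAT6. Capitals mark the matches.
Plac8, chr5:100572246-100572455, minus strand: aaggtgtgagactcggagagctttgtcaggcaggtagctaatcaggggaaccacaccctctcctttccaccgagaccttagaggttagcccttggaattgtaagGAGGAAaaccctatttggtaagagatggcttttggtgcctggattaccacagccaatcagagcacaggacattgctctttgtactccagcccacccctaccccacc
F13a1, chr13:37050245-37050494, minus strand: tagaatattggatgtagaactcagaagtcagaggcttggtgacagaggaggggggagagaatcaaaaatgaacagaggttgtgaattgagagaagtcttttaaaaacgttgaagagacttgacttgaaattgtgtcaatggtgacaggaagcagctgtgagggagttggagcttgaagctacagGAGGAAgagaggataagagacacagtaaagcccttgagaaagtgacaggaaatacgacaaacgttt
Gda, chr19:21472673-21472911, minus strand: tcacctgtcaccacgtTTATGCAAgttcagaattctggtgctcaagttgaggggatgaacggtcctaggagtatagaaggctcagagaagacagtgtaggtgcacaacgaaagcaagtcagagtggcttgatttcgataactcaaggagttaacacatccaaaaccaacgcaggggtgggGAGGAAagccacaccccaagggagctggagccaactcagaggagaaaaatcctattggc
Chil3, chr3:106167565-106167814, minus strand: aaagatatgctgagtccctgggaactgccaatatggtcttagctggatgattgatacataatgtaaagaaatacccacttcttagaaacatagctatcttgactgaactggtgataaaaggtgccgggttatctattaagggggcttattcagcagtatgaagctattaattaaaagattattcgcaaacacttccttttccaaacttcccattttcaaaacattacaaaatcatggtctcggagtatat
The PU.1 core was present in the printed windows of Plac8, F13a1 and Gda. It occurred in 23.3% of the 32851 RefSeq windows of 250 bases before a start site. In Plac8 another match lay 15 bases before the RefSeq start site, in the part left out here as exon. The Gda window also held the C/EBP core, at its far end, which 9.56% of all windows held. The STAT6 spacing, found in 5.85% of all windows, was in none of the 4 printed windows, and the Chil3 window held none of the 3 motifs. The windows of Vcan and Cd34, neither of which passed the test, had no match to any of the 3 motifs, and Hp had no entry in the table. The single RefSeq start site of Gda lies inside the annotated gene, and F13a1 and Plac8 each have 1 further RefSeq start site inside the gene. The window before that of Plac8 held the STAT6 spacing 153 bases and the C/EBP core 12 bases before the start site and no PU.1 core, and that of F13a1 held none of the 3 motifs. A match of letters is a description of the sequence and not evidence of binding.

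Plac8 encodes a small cysteine-rich protein that is abundant in monocytes, granulocytes and some lymphocytes. Its gene (ENSMUSG00000029322) lies on the minus strand of GRCm38 chr5:100553725-100572245. It was at 4.90, 5.55 and 6.01 CPM in WT replicates 1 to 3 and at 9.25, 10.1 and 10.9 CPM in AEG-1 KO replicates 1 to 3. Every AEG-1 KO library was above every WT library. The mean went from 5.49 ± 0.558 to 10.1 ± 0.808 CPM (SD, n = 3), a ratio of 1.84, with a log2 fold change of 0.88 ± 0.10 (SE; adjusted p = 0.00117, edgeR). These values rest on 219 to 325 reads per WT library and 417 to 487 reads per AEG-1 KO library. The 95% interval of the log2 fold change, 0.65 to 1.10, lay above those of Chil3, Gda, Vcan and Hp and overlapped those of F13a1 and Cd34. The other genes listed for the PLAC8 protein motif, Plac8l1 and Cnfn, were too low to test, and Cnfn had no read in any library.

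F13a1 encodes the catalytic A subunit of coagulation factor XIII, a transglutaminase that cross-links fibrin and matrix proteins and that monocytes and macrophages keep inside the cell. Its gene (ENSMUSG00000039109) lies on the minus strand of chr13:36867178-37050244. It was at 17.6, 18.3 and 19.3 CPM in WT and at 29.8, 28.4 and 25.4 CPM in AEG-1 KO, so the genotypes were well apart. The mean went from 18.4 ± 0.829 to 27.9 ± 2.25 CPM, a ratio of 1.51, with a log2 fold change of 0.60 ± 0.07 (SE; adjusted p = 0.00162, edgeR). The gene shares 74 exonic bases with the antisense gene Gm30489. No source used here gives the strand setting of the counting, and reads from that stretch may come from either gene.

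In the list of transglutaminases and of coagulation and fibrinolysis genes, 11 of 14 were tested, of which 4 rose, none fell and 7 did not pass. Their median log2 fold change was 0.28. Among those that rose was Plau, the urokinase that turns plasminogen into plasmin, from 33.6 to 42.6 CPM (adjusted p = 0.00645, edgeR). F7, coagulation factor VII, went from 1.69 to 2.65 CPM, and Tfpi, which inhibits the initiation of clotting, rose from 20.3 to 24.9 CPM (adjusted p = 0.0104 and 0.0423, edgeR). F13b, the carrier subunit of factor XIII, was too low to test.

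Chil3 encodes Ym1, a secreted chitinase-like protein of monocytes, neutrophils and macrophages that lacks chitinase activity and is known as a target of interleukin-4 and STAT6. Its gene (ENSMUSG00000040809) lies on the minus strand of chr3:106147554-106167564. It was at 66.6, 67.4 and 80.3 CPM in WT and at 103, 99.4 and 93.2 CPM in AEG-1 KO. WT replicate 3 stood above the other WT libraries but below all 3 AEG-1 KO libraries. The mean went from 71.5 ± 7.69 to 98.6 ± 5.0 CPM, a ratio of 1.38, with a log2 fold change of 0.47 ± 0.08 (SE; adjusted p = 0.00719, edgeR).

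Chil3 has close relatives, and reads can be shared among them. Its coding sequence of 1197 bases matched that of Chil4 (Ym2) at 95.3% of aligned bases. The first 60 coding bases of both, from the GENCODE transcripts, are shown because they differ at 1 position, given in capitals.
Chil3: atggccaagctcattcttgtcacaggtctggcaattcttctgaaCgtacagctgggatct
Chil4: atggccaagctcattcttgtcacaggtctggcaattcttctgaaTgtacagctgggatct
Despite this likeness, Chil4 had 1 to 3 reads per library, against 2978 to 4648 for Chil3. The pseudogene Gm6522 (ENSMUSG00000106373, plus strand of chr3:106275200-106299760) matched Chil3 at 94.9% over 1174 bases. Gm6522 had 408, 555 and 433 reads in WT and 636, 585 and 566 reads in AEG-1 KO. It thus ran at 12.5% to 14.1% of the Chil3 reads in every library. Gm6522 rose from 9.54 ± 0.443 CPM to a mean of 13.5 ± 0.771 CPM (log2 fold change 0.50 ± 0.07 SE, adjusted p = 0.00453, edgeR). How reads with several matches were handled is not stated in the sources used here, which leaves the split between Chil3 and Gm6522 uncertain. Summed over Chil3, Gm6522 and Chil4, the level was 75.8, 76.9 and 90.4 CPM in WT and 117, 113 and 106 CPM in AEG-1 KO, and the genotypes did not overlap. Of the 7 other chitinase family genes listed, 2 were tested, Chil1 and Ovgp1, and neither passed. Chil1, a chitinase-like protein of macrophages and other cells, was at 2.10 ± 0.217 CPM in WT against 2.51 ± 0.313 CPM in AEG-1 KO (adjusted p = 0.337, edgeR).

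Gda encodes guanine deaminase, which turns guanine into xanthine in purine breakdown. Its gene (ENSMUSG00000058624) lies on the minus strand of chr19:21391307-21473445. It was at 17.0, 17.9 and 20.5 CPM in WT and at 24.1, 25.1 and 22.8 CPM in AEG-1 KO. WT replicate 3 again stood highest in its group and nearest to the AEG-1 KO libraries. The mean went from 18.4 ± 1.82 to 24.0 ± 1.18 CPM, with a log2 fold change of 0.38 ± 0.08 (SE; adjusted p = 0.0215, edgeR). This call was the least firm of the 4: it was lost without WT replicate 1 or 2 or AEG-1 KO replicate 1 or 2 (adjusted p = 0.0519, 0.102, 0.0692 and 0.125, edgeR). Among the other listed genes of purine salvage and breakdown, 9 of 11 were tested, of which none rose, Adk fell and 8 did not pass, with a median log2 fold change of -0.10. Adk, the adenosine kinase, went from 57.8 to 46.2 CPM (adjusted p = 0.00439, edgeR). Xdh, the dehydrogenase that acts on the xanthine Gda makes, was at 327 CPM in WT against 356 CPM in AEG-1 KO (adjusted p = 0.0906, edgeR).

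**Figure D2:**
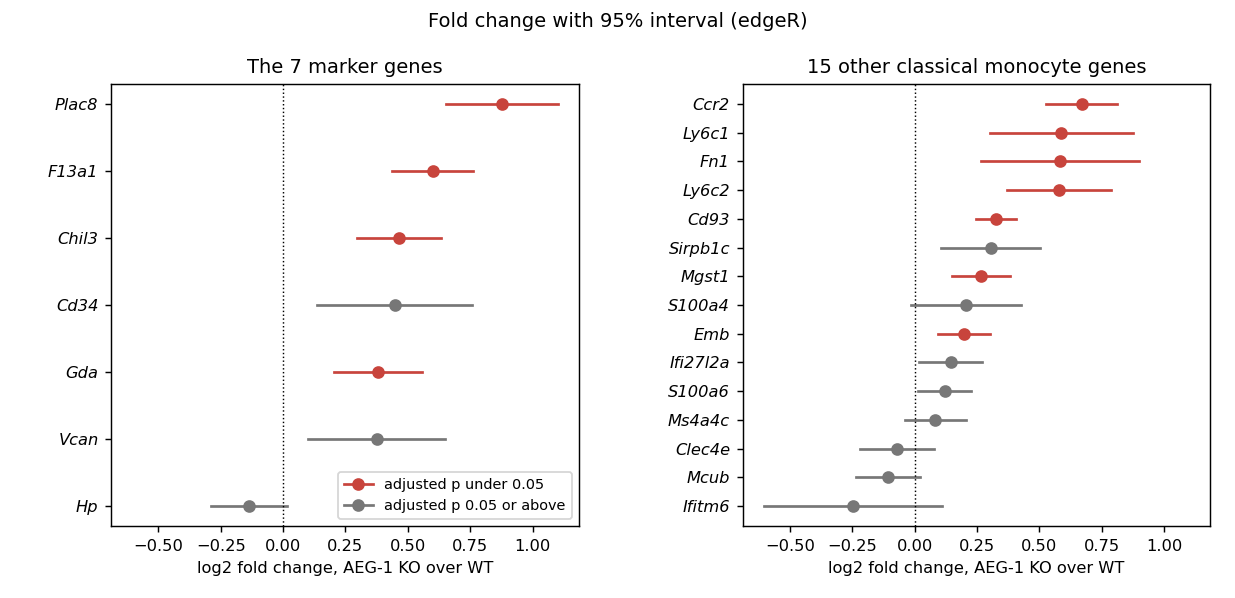
Log2 fold change of AEG-1 KO over WT (horizontal axis) with its 95% interval from edgeR, for the 7 genes (left) and 15 of the 16 other genes of classical monocytes (right), in red where the adjusted p is under 0.05. On the left 4 genes are red, Plac8 farthest from 0 at 0.88, and the interval of Hp spans 0; on the right 7 genes are red.

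Vcan encodes versican, a large chondroitin sulfate proteoglycan that binds hyaluronan and that monocytes make more of than mature macrophages do. Its gene (ENSMUSG00000021614) lies on the minus strand of chr13:89655312-89742509. It was at 3.0, 2.75 and 3.07 CPM in WT and at 3.88, 4.23 and 3.30 CPM in AEG-1 KO. The genotypes did not overlap, but AEG-1 KO replicate 3 came close to WT. The log2 fold change was 0.38 ± 0.12 (SE) with a 95% interval of 0.10 to 0.65, and it did not pass the test (adjusted p = 0.109, edgeR). With 133 to 180 reads per library Vcan was the least covered of the 7 genes. Of 18 other genes of the hyaluronan matrix, its receptors and the proteases that cut versican, 8 were tested, of which 1 rose and 7 did not pass. The gene that rose was Cd44, the main hyaluronan receptor of leukocytes, from 352 to 422 CPM (adjusted p = 0.0122, edgeR).

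Cd34 encodes a sialomucin on the surface of haematopoietic progenitors, endothelial cells and some fibroblasts. Its gene (ENSMUSG00000016494) lies on the plus strand of chr1:194938819-194961279. It was at 3.51, 3.90 and 4.76 CPM in WT and at 4.70, 6.03 and 5.82 CPM in AEG-1 KO, and the genotypes overlapped between WT replicate 3 and AEG-1 KO replicate 1. The log2 fold change was 0.45 ± 0.14 (SE) with a 95% interval of 0.14 to 0.76, without passing the test (adjusted p = 0.0926, edgeR). Without WT replicate 3 it passed, at a log2 fold change of 0.56 (adjusted p = 0.0356, edgeR). The antisense gene Gm16897 shares 148 exonic bases with Cd34 and had 5 to 16 reads per library. Of 5 other sialomucins, Cd164 and Selplg were tested. Cd164, which is widespread on blood cells, rose from 63.3 to 87.5 CPM (adjusted p = 0.0018, edgeR), and Selplg, the ligand of P-selectin, was at 238 and 223 CPM (adjusted p = 0.597, edgeR).

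Hp encodes haptoglobin, a plasma protein that binds free haemoglobin and is also stored by neutrophils and made by monocytes. Its gene (ENSMUSG00000031722) lies on the minus strand of chr8:109575128-109579172. It was at 20.7, 19.3 and 19.0 CPM in WT and at 18.7, 18.3 and 16.6 CPM in AEG-1 KO. All AEG-1 KO values were below all WT values, by a margin smaller than the spread within either genotype. The log2 fold change was -0.14 ± 0.07 (SE) and did not pass the test (adjusted p = 0.278, edgeR). Its 95% interval, -0.29 to 0.01, left out rises of the size fitted for the other 6 genes. None of the 8 listed genes of haemoglobin and haem uptake and breakdown passed, with a median log2 fold change of -0.04. Before adjustment, Hp was the one gene of the 7 whose p was not under 0.05, which 21.6% of all tested genes reached.

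The 7 genes lay at very different levels. Per kilobase of annotated exon, the WT level was highest for Chil3, at 43.8 ± 4.71 CPM per kb, followed by Hp at 12.2 ± 0.55, Plac8 at 3.45 ± 0.351, Gda at 2.96 ± 0.291, F13a1 at 2.73 ± 0.123, Cd34 at 0.556 ± 0.0878 and Vcan at 0.203 ± 0.0117. In WT, Plac8 and Gda overlapped between libraries, as did Gda and F13a1, and all other neighbours in that order were apart. In AEG-1 KO the order was Chil3, Hp, Plac8, F13a1, Gda, Cd34 and Vcan, with F13a1 at 4.14 ± 0.334 and Gda at 3.85 ± 0.19 CPM per kb overlapping. Among all tested genes Chil3 lay at the 93.0 percentile of this scale and Vcan at the 9.93 percentile. Lengths are those of all annotated exons together, so a gene that uses few of its long exons is placed too low.

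**Figure D3:**
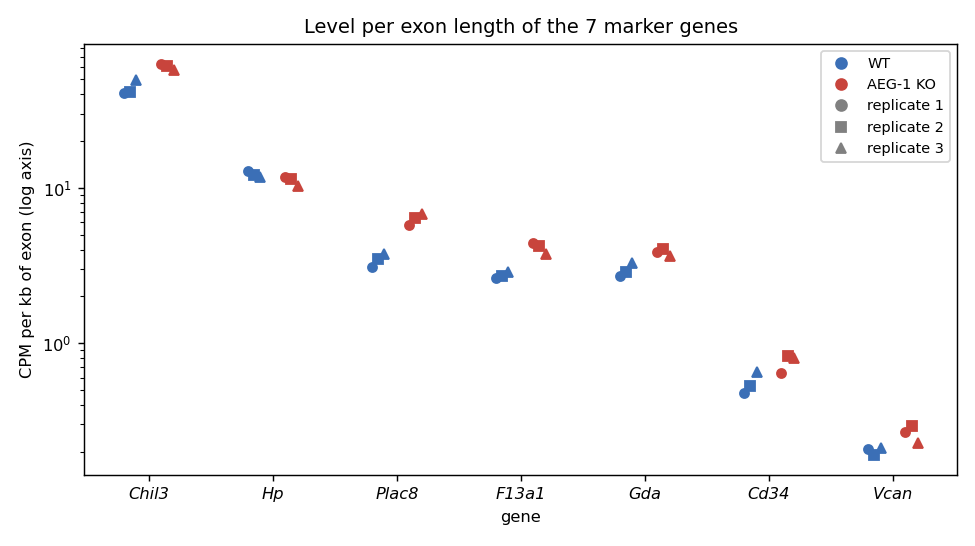
CPM per kilobase of exon (vertical log axis) of the 7 genes in each WT (blue) and AEG-1 KO (red) library, ordered by their mean over all 6 libraries, with symbols for replicates 1 to 3. Chil3 stands highest, at 43.8 in WT and 60.4 in AEG-1 KO on average, and Vcan lowest, at 0.203 and 0.263.

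Within WT, the genes moved with the library as well. WT replicate 3 was the highest WT library for 6 of the 7 genes and the lowest for Hp, and WT replicate 1 was the lowest for 5. In AEG-1 KO, replicate 3 was the lowest library for 5 of the 7 genes and the highest for Plac8. The summed level of the 7 genes was 133, 135 and 153 CPM in WT replicates 1 to 3 and 194, 192 and 178 CPM in AEG-1 KO replicates 1 to 3. Chil3 was the largest part of each sum, at 66.6, 67.4 and 80.3 CPM in WT and 103, 99.4 and 93.2 CPM in AEG-1 KO, so the sums mostly follow Chil3. With each library left out in turn, the calls of Plac8, F13a1 and Chil3 were kept in all 6 fits. Their log2 fold changes ran from 0.80 to 0.94, from 0.55 to 0.65 and from 0.41 to 0.55, and the largest edgeR adjusted p was 0.00954, 0.0143 and 0.0491.

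**Figure D4:**
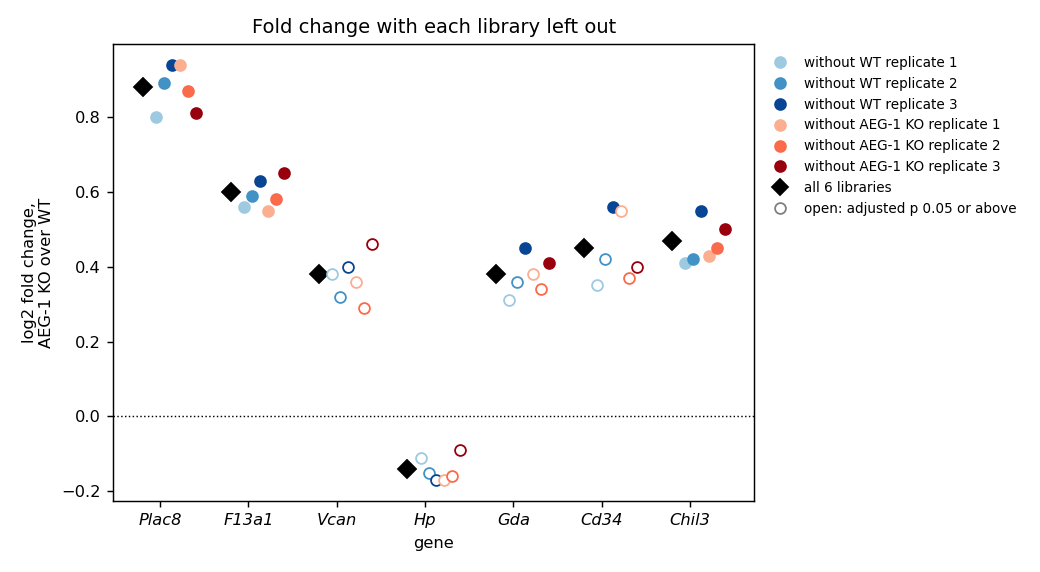
Log2 fold change of AEG-1 KO over WT (vertical axis) of the 7 genes with all 6 libraries (black diamonds) and without each library in turn (circles), open where the edgeR adjusted p is 0.05 or above. The circles of Plac8, F13a1 and Chil3 are all filled, those of Gda are filled in 2 of 6 fits and those of Cd34 in 1, and Vcan and Hp have none filled.

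Other genes of classical monocytes were read beside these 7, from a list of 16 that were all tested. Of these, 7 rose, none fell and 9 did not pass, with a median log2 fold change of 0.20. Ccr2, the receptor that draws monocytes out of the marrow and into tissue, went from 12.8 ± 0.686 to 20.4 ± 0.385 CPM (log2 fold change 0.67 ± 0.06 SE, adjusted p = 0.000492, edgeR). Ly6c2 and Ly6c1, which encode the antigens that define the Ly6C-high subset, had fold changes of 0.58 and 0.59 in log2 units (adjusted p = 0.00688 and 0.027, edgeR). The sequences of these neighbouring genes are closely related, and reads may be shared between them. They lie in 1 cluster with Ly6a and Ly6g, named below, at chr15:74994877-75159126. Mtdh is on the same chromosome, at chr15:34082694-34145624. Any part of this position in the fold changes was not tested. Fn1, which encodes fibronectin, rose by 0.58, Cd93 by 0.33, Mgst1 by 0.27 and Emb by 0.20 in log2 units (adjusted p = 0.0428, 0.000992, 0.0166 and 0.0373, edgeR). F13a1, Chil3 and Gda lay in the range of these rises, 0.20 to 0.67 in log2 units, and Plac8 lay above it. Of the 16, 13 had a log2 fold change above 0. Ifitm6, Mcub and Clec4e, at -0.25, -0.11 and -0.07, were below 0 and did not pass.

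Markers of the Ly6C-low (non-classical) monocytes went both ways. Of 10 listed, 9 were tested, of which 3 rose, 3 fell and 3 did not pass. Adgre4 rose from 6.63 to 12.7 CPM and Nr4a1, the transcription factor these monocytes depend on, from 3.85 to 5.62 CPM (adjusted p = 0.0007 and 0.0311, edgeR). Pglyrp1, which neutrophils also make, was the other one that rose. Cd300e, Itgal and Spn fell by 0.54, 0.34 and 0.32 in log2 units (adjusted p = 0.000747, 0.00269 and 0.00814, edgeR).

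Cd34 also marks progenitors, and of 20 other stem and progenitor markers 13 were tested. Of these, 1 rose, 12 did not pass and none fell. The gene that rose was Ly6a, the Sca-1 antigen, which mature cells also express, from 55.0 to 116 CPM (adjusted p = 3.92e-06, edgeR). The defining progenitor genes Kit, Flt3 and Mpo were low in both genotypes, with Kit at 0.338 and 0.385 CPM, Flt3 at 0.196 and 0.121 CPM and Mpo at 0.127 and 0.198 CPM in WT and AEG-1 KO. Of the 13 tested, Ly6a and Prtn3 had every AEG-1 KO library above every WT library, and Cd27 and Myb had every one below. Prtn3, Cd27 and Myb did not pass, with log2 fold changes of 0.85, -0.54 and -0.25 (adjusted p = 0.0784, 0.162 and 0.253, edgeR). Elane and Erg, too low to test, were also higher in CPM in each AEG-1 KO library than in any WT library. Elane had 2, 5 and 3 reads in WT against 17, 9 and 8 reads in AEG-1 KO. None of the 20 was at 0 in all libraries.

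Markers of other cells that make the same transcripts also moved, and their part in the results above was not tested. Neutrophils express Chil3, Hp and Plac8. Among 16 neutrophil markers there were 6 rises and 2 falls, with 8 not passing. Their summed level was 826 to 875 CPM in WT libraries against 893 to 965 CPM in AEG-1 KO libraries. Most of each sum came from Anxa1 and Csf3r, neither of which passed (adjusted p = 0.44 and 0.364, edgeR). Anxa1 averaged 339 CPM in WT libraries against 360 CPM in AEG-1 KO libraries, and Csf3r 243 against 256 CPM. Ngp, Ltf, Camp, S100a8, S100a9 and Mmp8 rose, with Ngp going from 23.0 to 36.1 CPM (adjusted p = 0.00161, edgeR), and Lcn2 and Mmp9 fell. Ly6g, which defines neutrophils, had 7, 9 and 3 reads in WT and 13, 16 and 13 reads in AEG-1 KO and did not pass. Fibroblasts and endothelial cells express Vcan and Cd34. Of 16 stromal and endothelial markers 11 were tested, of which 5 rose and 6 did not pass. The summed level of all 16 was 51.0 to 59.1 CPM in WT and 60.4 to 69.2 CPM in AEG-1 KO, most of it from Eng, which macrophages also express. Col1a2 rose from 1.24 to 2.37 CPM (adjusted p = 0.00412, edgeR). The low counts of the fibroblast genes Dcn and Lum differed in opposite directions. Dcn, counted among the 5, had 2, 4 and 3 reads in WT and 13, 12 and 12 in AEG-1 KO. It passed the count filter only through the AEG-1 KO libraries, as did Ly6g. Lum had 8, 12 and 12 reads in WT and 4, 1 and 4 in AEG-1 KO and was not tested.

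Mature macrophage genes went both ways in AEG-1 KO. Of 16 listed, all tested, 4 rose, 1 fell and 11 did not pass, with a median log2 fold change of 0.18. Csf1r, the M-CSF receptor, rose from 1940 to 2525 CPM, and Mertk, Mrc1 and Cd14 rose by 0.39, 0.42 and 0.35 in log2 units (adjusted p = 0.000919, 0.00101, 0.00117 and 0.00161, edgeR). Adgre1 fell by 0.19 in log2 units (adjusted p = 0.0238, edgeR). Of the 16, 5 had every AEG-1 KO library above every WT library, and 3, Adgre1, Itgam and Maf, had every one below. Over all tested genes this was so in 13.9% and 12.9%. Itgam and Maf, at -0.14 and -0.11 in log2 units, did not pass (adjusted p = 0.0792 and 0.176, edgeR).

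**Figure D5:**
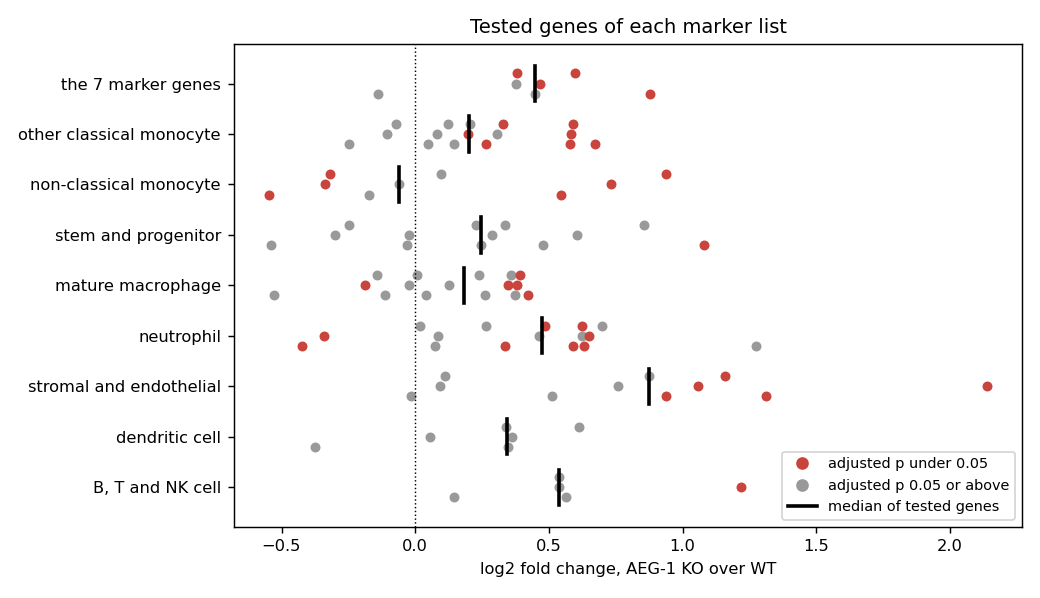
Log2 fold change of AEG-1 KO over WT (horizontal axis) of each tested gene (points, red at an edgeR adjusted p under 0.05) in 9 marker lists, with the median of the tested genes as a black bar. The bar lies at 0.45 for the 7 genes, 0.20 for the other classical monocyte genes, -0.06 for the non-classical monocyte genes, 0.47 for the neutrophil and 0.88 for the stromal genes, of which only those that passed the count filter are shown, Dcn included and Lum left out.

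For each of the 7 genes, the other gene with the most similar log2 CPM over the 6 libraries was sought among 13255 genes averaging 1 CPM or more. The measure was Pearson's r, given as a description, since the libraries share their genotype differences and depth. Picking the highest r among 13255 genes over 6 libraries also yields values near 1 by itself. The closest gene to F13a1 was the Chil3-related pseudogene Gm6522 (r = 0.999), followed by Mefv, the pyrin gene of myeloid cells (r = 0.999). The closest to Plac8 was Nlrp1c-ps (r = 0.999), to Chil3 Mtcp1 (r = 0.998), to Gda Rbak (r = 0.999), to Vcan Zfp518a (r = 0.997), to Cd34 5430403G16Rik (r = 0.990) and to Hp Cdc42se1 (r = 0.996). Several of these moved little: the log2 fold change of Mtcp1 was 0.19 and that of Rbak 0.27 (adjusted p = 0.151 and 0.0784, edgeR).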

How the data were processed

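Total RNA of marrow-derived macrophages was made into 6 libraries with an Illumina TruSeq kit and sequenced on a HiSeq3000, per the labels' protocols. The authors deposited raw read counts per Ensembl gene, 1 column per library, per the file headers. Submitters' processing notes name edgeR 3.18.1, featureCounts 1.4.6-p4, Subread, cutadapt 1.9 and FastQC 0.11.2, and the builds mm10 and GRCm38, with no roles. The strand setting, annotation release and handling of multiply matching reads are not stated in the sources used here. Symbols and positions came from GENCODE mouse release 21 (GRCm38), which matched 46488 of the 46983 identifiers.

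Genes passing filterByExpr (at least 10 counts) were normalized by TMM. The quasi-likelihood test of edgeR 4.0.16 (R 4.3.3) was run with genotype as its single term, with Benjamini-Hochberg adjustment over 16115 genes and calls at 0.05. Standard errors were derived from the fold change and the F statistic. Depending on the library, 1 CPM was 42.6 to 58.5 reads. Replicate pairs differed beyond counting noise (chi-square per degree of freedom 5.58 to 19.3), so all were kept as separate samples. This says nothing of a shared RNA or mouse. The fit was checked on simulated data. It called 98% of added changes of 1 and 78% of those of 0.5 in log2 units, and 6.88% of its calls were false. Alternatives were other scalings and filters, DESeq2 1.42.0, limma-voom (limma 3.58.1), a replicate block and leaving out each library. Transcripts were compared with BLAST+ 2.17.0. Of 188 other list genes 1, Pnp, was not matched. The genes and lists were chosen with earlier results of these data known. Named genes were Mtdh, the 7 genes, up to 4 genes with the smallest p in each list, classical monocyte defining genes, close relatives by sequence and the genes most alike across libraries. Other genes were named after their values were seen. A few of the items these rules name are not reported here.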

Additional observations from a re-analysis of the deposited data

How the results depend on the processing

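Plac8, F13a1, Vcan and Hp kept their direction and their side of the threshold in all 14 alternatives. Scalings, filters, DESeq2 and limma-voom changed no call of the 7 genes. With a replicate block, 227 genes were called in place of 1023 and 2 of the 7 genes in place of 4: Gda (log2 fold change 0.38, adjusted p = 0.132, edgeR) and Chil3 (0.47, adjusted p = 0.068) no longer passed. The numbers in the titles share no stated source, and deviations of same-numbered WT and AEG-1 KO libraries correlated at -0.27 to -0.17, so no library was most like its own number. Leaving out each library in turn gave 380 to 1094 called genes over the table, with 441 without WT replicate 2 and 667, 380 and 606 when AEG-1 KO replicate 1, 2 or 3 was left out. These fits gave log2 fold changes of 0.31 to 0.45 for Gda, 0.35 to 0.56 for Cd34, 0.29 to 0.46 for Vcan and -0.17 to -0.09 for Hp, and 3 to 5 of the 7 genes called. The cause was not tested. Vcan, Cd34 and Plac8 had at most 487 reads per library, which limits the precision of their fold changes.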

Other observations

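Markers of further blood cells differed widely in level. Of 10 mast cell, basophil and eosinophil markers, Hdc and Siglecf passed the count filter and neither passed the test, with Siglecf at 3.15 CPM in WT against 3.03 CPM in AEG-1 KO (adjusted p = 0.854, edgeR), and Mcpt8 and Tpsb2 had no read in any library. Of 10 dendritic cell markers 6 were tested and none passed (smallest adjusted p = 0.186, Dpp4, edgeR). Itgax, an integrin that macrophages also express, was at 11.9 CPM in WT libraries against 12.4 CPM in AEG-1 KO libraries. Of 11 B, T and NK cell markers 5 were tested. Cd4, the co-receptor of helper T cells, averaged 11.2 CPM in WT libraries against 12.4 CPM in AEG-1 KO libraries and did not pass (adjusted p = 0.278, edgeR). The other T cell genes listed were too low to test, with 0 to 3 reads per library for Cd3e, 0 to 2 for Cd3g and 1 to 4 for Cd8a. Among the 5 tested, Pax5, the B cell transcription factor, rose from 0.508 to 1.19 CPM (adjusted p = 0.00356, edgeR). Cd79a, at 0.804 and 1.19 CPM, did not pass (adjusted p = 0.112, edgeR).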
